A study of Homo sapiens with 8 samples.

Results

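The miR-130, miR-301 and miR-454 family is a group of miRNAs whose 3p arms share the same seed, the short stretch near the 5′ end that pairs with target mRNAs. The 8 mature miRNAs described here were taken by name from the raw count table of 1780 mature miRNAs. They are hsa-miR-130a-3p, hsa-miR-130b-3p, hsa-miR-130b-5p, hsa-miR-301a-3p, hsa-miR-301a-5p, hsa-miR-301b-3p, hsa-miR-454-3p and hsa-miR-454-5p, written below without the species prefix. The rule that picks them uses names and no measured value.

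A miRNA is cut from a hairpin precursor, either arm of which can be loaded into Argonaute, and the loaded strand represses mRNAs that carry a match to its seed. Members with a common seed are therefore expected to share many targets, and hairpins that lie close together are often cut from 1 primary transcript. Members of the family have been studied in colorectal and other tumours.

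DLD1 and HT29 are established colorectal adenocarcinoma cell lines. Each was grown for 6 days as a flat monolayer (2D) or as multicellular spheroids (MCS) in round-bottom wells coated with agarose, with 2 biological replicates per line and culture and 8 small RNA libraries in all. In DLD1, 35000 cells were seeded for 2D and 7000 for MCS, in RPMI medium, and libraries were made with kit V3. In HT29, 100000 cells were seeded for 2D and 3500 for MCS, in DMEM, and libraries were made with kit V2. Both media held the same serum and supplements. Line, medium and kit cannot be told apart, and the cultures of a line also differed in seeded cell number and vessel.

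The libraries held 10495634 to 26211524 miRNA counts. The 7 miRNAs listed as colon epithelium markers (miR-192-5p, miR-194-5p, miR-429 and the miR-200 relatives) were at 446 CPM (counts scaled to a common library size) or more in every library. Their sum was 9.73% to 11.2% of counts in DLD1 2D, 17.5% to 17.7% in DLD1 MCS, 7.27% to 20.0% in HT29 2D and 14.8% to 27.7% in HT29 MCS, and its part in the results was not tested. None of the 4 fibroblast and muscle markers reached 10 CPM in any library. The 2 blood markers in the table summed to under 1 CPM in each DLD1 library, to 6.29 to 11.5 CPM in HT29 2D and to 38.3 to 63.9 CPM in HT29 MCS. The HT29 sum was nearly all miR-150-5p (6.29 and 11.3 CPM in 2D, 38.3 and 63.7 in MCS), while miR-451a had 0 and 4 counts in each culture. The endothelial miR-126-3p lay at 78.9 to 94.0 CPM in DLD1 and 2.19 to 15.3 CPM in HT29. Replicate 1 of HT29 2D stood apart from replicate 2, with a normalization factor of 0.522 against 1.66. The HT29 MCS replicates were split in the same direction, at 0.7414 against 1.555. Replicate 1 also held fewer miRNA counts than replicate 2, 10495634 against 26211524 in HT29 2D and 10745232 against 17182624 in HT29 MCS. The split is therefore not limited to 1 library, and its cause was not tested. The HT29 values that moved most without replicate 1 of 2D are also given without it. The changes pooled over both lines were not recomputed without it.

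The mature sequences show what the members share and where close relatives differ. They are printed 5′ to 3′ from the RefSeq table of GRCh38.p14, which gave a sequence for 7 of the 8 members (not for miR-130a-3p), with the seed (bases 2 to 8) in capitals. The 3p arms come first.
miR-130b-3p: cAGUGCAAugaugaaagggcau
miR-301a-3p: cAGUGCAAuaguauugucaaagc
miR-301b-3p: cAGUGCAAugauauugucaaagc
miR-454-3p: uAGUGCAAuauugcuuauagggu
miR-130b-5p: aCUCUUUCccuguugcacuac
miR-301a-5p: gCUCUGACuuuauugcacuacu
miR-454-5p: aCCCUAUCaauauugucucugc

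The 4 printed 3p arms all carry the seed AGUGCAA, which was found in 6 of the 2370 mature miRNAs of the table. The other carriers, miR-3666 and miR-4295, were not in the count table. The 3 5p arms carry 3 different seeds and so do not belong to the same seed group. MiR-301a-3p and miR-301b-3p were identical at 21 of 23 bases (91.3%) and differed at A10G and G11A, counted from the 5′ end of miR-301a-3p. MiR-130b-3p shared 13 of 22 positions (59.1%) with its neighbour miR-301b-3p. How reads that match several miRNAs were counted is not given in the sources used here, so the separation of miR-301a-3p from miR-301b-3p is uncertain.

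On the 5p side, 2 members hold UUGCACU, the reverse complement of the family seed, on the strand that folds back onto the 3p arm of the hairpin. It starts at base 13 in both and is set in capitals in the following lines.
miR-130b-5p: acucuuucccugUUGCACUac
miR-301a-5p: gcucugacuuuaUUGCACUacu
These letters were found in 8 of the 2370 mature miRNAs (0.338%), read on the mature strand alone. MiR-454-5p does not hold them.

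The hairpins lie at 3 loci, given on GRCh37, the build of the deposited files. MIR301A (chr17:57228497-57228582) and MIR454 (chr17:57215119-57215233) lie on the minus strand in introns of SKA2, which encodes a component of the spindle and kinetochore complex, with 13263 bases between them. MIR301B (chr22:22007270-22007347) and MIR130B (chr22:22007593-22007674) lie on the plus strand 245 bases apart, within a long non-coding RNA gene. MIR301B lies in an intron of that gene, and MIR130B overlaps an exon of some of its transcripts. MIR130A (chr11:57408671-57408759, plus strand) lies in an intron of the long non-coding RNA gene MIR130AHG. The loci therefore give 4 members from SKA2, 3 from the MIR301B and MIR130B locus and 1 from MIR130A.

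The family was a small part of the miRNA pool and was larger in DLD1. Its 8 members took 0.123% and 0.146% of miRNA counts in the DLD1 2D replicates and 0.114% and 0.102% in MCS. In HT29 they took 0.0148% and 0.0673% in 2D and 0.0473% and 0.0704% in MCS. In DLD1 the MCS shares lay below the 2D shares, and in HT29 the cultures overlapped, with replicate 1 of 2D far below the other 3 libraries. These shares do not use the upper quartile factors, and the DLD1 order depends on that. Scaled by those factors, the summed 3p arms overlapped in DLD1, at 719.8 and 738.4 CPM in 2D and 678.5 and 814.2 in MCS.

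MiR-130a-3p was at or near 0 throughout. It had 0 and 1 counts in DLD1 2D, 1 and 0 in DLD1 MCS, 0 and 0 in HT29 2D, and 0 and 1 in HT29 MCS. It entered no fit. A count of 0 allows a level of up to 3 counts, which in DLD1 2D is 0.190 CPM in replicate 1, counting error only. No ratio with miR-130a-3p was formed, so the MIR130A locus could not be compared with the others beyond these counts.

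**Figure D1:**
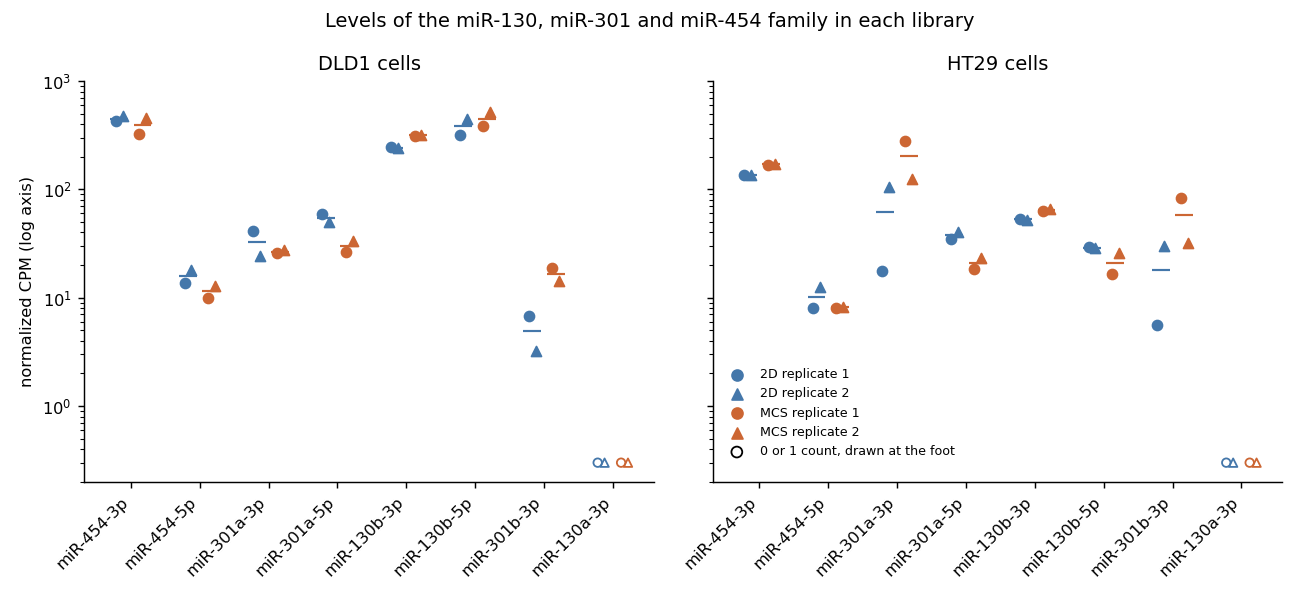
Normalized CPM on a log axis for each family member in DLD1 (left) and HT29 (right), with 2D in blue, MCS in orange, replicate 1 as circles, replicate 2 as triangles, group means as lines and the 0 or 1 counts of miR-130a-3p as open symbols at the foot of the axis. In HT29 the circles of 2D for miR-301a-3p (17.5) and miR-301b-3p (5.66) lie well below the other 3 points of these miRNAs, and in DLD1 the MCS points of miR-301b-3p (18.7 and 14.4) lie above the 2D points (6.73 and 3.19).

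Levels are given as normalized CPM, the count divided by the library total times an upper quartile factor and scaled as CPM. The 7 members printed above are 21 to 23 bases long, so no length correction was made. Amplified reads are not independent molecules, and ligation preferences of the kits were not measured. In DLD1 2D, miR-454-3p (449 ± 32.7, SD, n = 2) and miR-130b-5p (382 ± 88.5) were the most abundant and their replicates overlapped. They were followed by miR-130b-3p (242 ± 5.28), miR-301a-5p (54.3 ± 6.22), miR-301a-3p (32.9 ± 11.8), miR-454-5p (15.8 ± 2.95) and miR-301b-3p (4.96 ± 2.50), whose replicates did not overlap between neighbours. In DLD1 MCS, miR-130b-5p (450 ± 88.8) and miR-454-3p (389 ± 93.2) overlapped again, with miR-130b-3p (314 ± 4.62) just below them. Overlap was also seen between miR-301a-5p (29.7 ± 5.02) and miR-301a-3p (26.6 ± 1.24), and miR-301b-3p (16.5 ± 3.04) stood above miR-454-5p (11.5 ± 2.06).

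In HT29 the order was different. In 2D, miR-454-3p (135 ± 0.272, SD, n = 2) was followed by miR-301a-3p (61.9 ± 62.7), miR-130b-3p (52.9 ± 0.306), miR-301a-5p (37.9 ± 4.01), miR-130b-5p (29.0 ± 0.762), miR-301b-3p (17.8 ± 17.2) and miR-454-5p (10.2 ± 3.13). The SD of miR-301a-3p and miR-301b-3p was about as large as their mean, so their places in the 2D order are not set. In MCS, miR-301a-3p (202 ± 108) and miR-454-3p (171 ± 2.18) overlapped at the top, then came miR-130b-3p (64.4 ± 1.54) overlapping miR-301b-3p (57.9 ± 36.8), then miR-130b-5p (21.04 ± 6.50) overlapping miR-301a-5p (20.7 ± 3.34), and miR-454-5p was lowest (8.15 ± 0.166). The lines were normalized separately, and their levels are not compared by a test.

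The first comparison asked which members differed between MCS and 2D in DLD1. Over the 346 miRNAs whose mean level reached 10 CPM, edgeR's quasi-likelihood test was run, and 2 of the 7 tested members were called (fold change of at least 1.5 and Benjamini-Hochberg adjusted p-value under 0.05), miR-301b-3p higher and miR-301a-5p lower in MCS. Of all miRNAs tested, 41.3% were called, 29.8% higher and 11.6% lower, so a share of 2 in 7 does not exceed the background. The split of all calls moved with the scaling, from 103 higher and 40 lower to 76 and 62 under TMM scaling, 60 and 83 when libraries were scaled by their totals and 49 and 93 with upper quartiles over the tested miRNAs. These scalings shifted the median of all log2 fold changes by -0.21, -0.37 and -0.46. The median log2 fold change was -0.21 over the 7 members and 0.23 over all miRNAs tested. In these bulk libraries, fewer cells that express a miRNA and less of it per cell cannot be told apart.

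MiR-301b-3p, of the MIR301B and MIR130B locus, was at 6.73 and 3.19 normalized CPM in the DLD1 2D replicates and at 18.7 and 14.4 in MCS. The 2D and MCS libraries did not overlap. The log2 fold change was 1.75 (SE 0.37, adjusted p = 1.25e-05 by the edgeR quasi-likelihood test, Benjamini-Hochberg adjusted), a 3.37-fold rise. Its raw counts were 118 and 95 in 2D against 349 and 219 in MCS, and it passed the filter on mean CPM through the MCS libraries. Without replicate 2 of 2D the call was lost (log2 fold change 1.18, adjusted p = 0.0549 by edgeR with Benjamini-Hochberg adjustment), and without replicate 1 of MCS it fell under the filter. It was also lost with upper quartiles over the tested miRNAs (1.31, adjusted p = 0.0515, edgeR) and with all 8 libraries in 1 fit (1.74, adjusted p = 0.251, edgeR).

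MiR-301a-5p, the arm of MIR301A that does not carry the family seed, was at 58.7 and 49.9 normalized CPM in DLD1 2D and at 26.2 and 33.3 in MCS. The MCS libraries both lay below the 2D libraries. It fell by 0.87 on the log2 scale (SE 0.31, adjusted p = 0.0145 by the edgeR quasi-likelihood test, Benjamini-Hochberg adjusted). The study itself picked miR-301a-5p from these libraries as changed in both lines, so its direction is not independent evidence. Without replicate 1 of MCS the log2 fold change was -0.87 with an adjusted p of 0.057, and with all libraries in 1 fit it was -0.89 with an adjusted p of 0.108 (both edgeR with Benjamini-Hochberg adjustment).

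The other 5 tested members were not called in DLD1. MiR-130b-3p was at 246 and 239 normalized CPM in 2D and at 311 and 318 in MCS, with both MCS libraries above both 2D libraries by 1.30-fold (log2 fold change 0.38, SE 0.24, adjusted p = 0.199, edgeR), but it turned to -0.07 with upper quartiles over the tested miRNAs. MiR-454-5p was at 13.7 and 17.9 in 2D and at 9.99 and 12.9 in MCS (log2 fold change -0.47, SE 0.35, adjusted p = 0.289, edgeR). In CPM of the library total it was at 15.18 and 20.84 in 2D but at 10.35 and 9.627 in MCS, close to the filter of 10 CPM. MiR-130b-3p and miR-454-5p are 1 of the 2 members above and 1 of the 2 members below without overlap, where 45.4% of all tested miRNAs lay above and 25.4% below. The groups overlapped for the others, miR-130b-5p (log2 fold change 0.24, SE 0.23, but -0.16 with library totals and -0.22 with upper quartiles over the tested miRNAs), miR-301a-3p (-0.30, SE 0.33) and miR-454-3p (-0.21, SE 0.23), with adjusted p-values from 0.429 to 0.484 by edgeR. Leaving out 1 library moved miR-301a-3p to -0.01 (without replicate 1 of 2D) or -0.75 (without replicate 2 of 2D) and miR-454-3p to -0.54 (without replicate 2 of MCS). MiR-454-3p was called lower by edgeR with library totals (-0.60) and with upper quartiles over the tested miRNAs (-0.68), and miR-454-5p with the latter (-0.92).

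**Figure D2:**
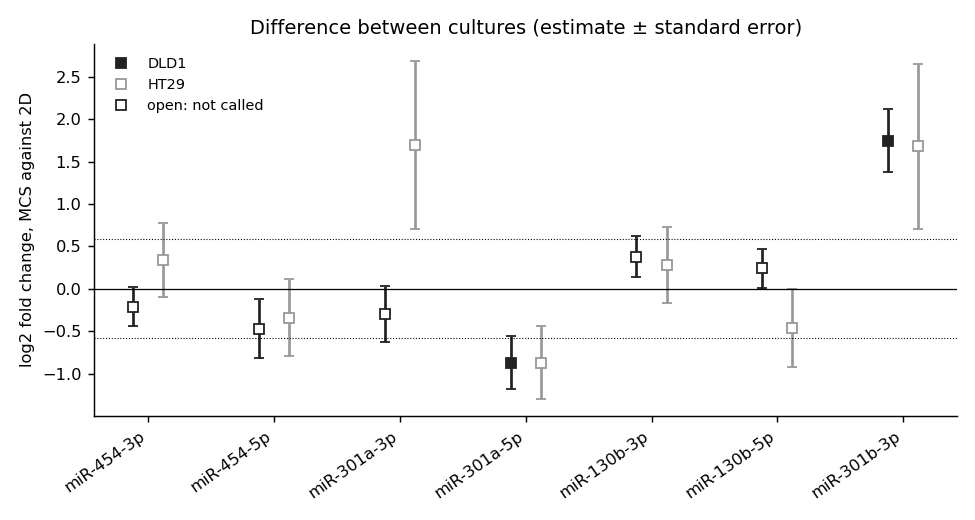
Log2 fold change of MCS against 2D for the 7 tested members in DLD1 (black) and HT29 (grey), with error bars of 1 SE from edgeR, filled squares for called members and dotted lines at the 1.5-fold threshold in each direction. In DLD1 miR-301b-3p (1.75) and miR-301a-5p (-0.87) are filled, and in HT29 miR-301a-3p (1.70, SE 0.99) and miR-301b-3p (1.68, SE 0.97) have the longest bars.

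The same comparison in HT29, fitted like DLD1 without a replicate term, gave no call. Of all miRNAs tested there by the edgeR quasi-likelihood test, Benjamini-Hochberg adjusted, 0 (0%) were called, and the 7 tested members all had an adjusted p of 0.977. At an unadjusted p under 0.05 the count was 0 of 7 members and 3.99% of all miRNAs, and 0 members were called by edgeR's exact test (1.66% of all miRNAs) and by DESeq2 (3.99%). The biological coefficient of variation, the fitted spread between replicates, was 0.521 in HT29 against 0.193 in DLD1. The median log2 fold change was 0.28 over the members and 0.03 over all miRNAs tested. In both MCS libraries, 4 members lay above both 2D libraries (17.9% of all tested) and 2 lay below them (10.6% of all tested). These orders are in normalized CPM and depend on the upper quartile factors. In CPM of the library total the cultures overlapped for every tested member except miR-301a-3p, which was higher in MCS.

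MiR-301a-3p showed the widest range in HT29. Its raw counts were 96 and 4622 in 2D and 2214 and 3357 in MCS, which gave 17.5 and 106 normalized CPM in 2D and 278 and 126 in MCS. In CPM of the library total it was at 9.15 and 176.3 in 2D and at 206 and 195.4 in MCS. The gap between the MCS replicates thus depends on the upper quartile factors, while replicate 1 of 2D is low on both scales. Both MCS libraries lay above both 2D libraries, but the 2D replicates themselves differed more than replicate 2 of 2D differed from replicate 2 of MCS. The log2 fold change was 1.70 (SE 0.99). Without replicate 1 of 2D it was 0.92, without replicate 2 of 2D 3.44, and without replicate 1 of MCS 1.00.

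MiR-301b-3p, on another chromosome, ran alongside it. It was at 5.66 and 30.01 normalized CPM in HT29 2D and at 84.0 and 31.9 in MCS (log2 fold change 1.68, SE 0.97). Replicate 1 of MCS was the highest library for both miRNAs and replicate 1 of 2D the lowest. In CPM of the library total miR-301b-3p was at 2.95 and 49.83 in 2D and at 62.3 and 49.58 in MCS, and the cultures overlapped. Without replicate 1 of 2D its log2 fold change was 0.94, without replicate 2 of 2D 3.27, and without replicate 1 of MCS 0.80. The MCS to 2D ratio of libraries with the same number was 15.9 and 1.18 for miR-301a-3p and 14.9 and 1.06 for miR-301b-3p.

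MiR-130b-3p and miR-454-3p, by contrast, were close between replicates. MiR-130b-3p was at 53.1 and 52.7 normalized CPM in HT29 2D and at 63.3 and 65.4 in MCS (log2 fold change 0.28, SE 0.45). MiR-454-3p was at 135 in both 2D replicates and at 169 and 172 in MCS (log2 fold change 0.34, SE 0.44). Both MCS libraries lay above both 2D libraries for each of them, by less than the fitted error. The close replicates and this order depend on the upper quartile factors. In CPM of the library total miR-130b-3p was at 27.7 and 87.4 in 2D and at 46.9 and 102 in MCS. On that scale miR-454-3p was at 70.5 and 223.5 in 2D and at 125.5 and 268.2 in MCS.

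In normalized CPM the 5p arms lay lower in HT29 MCS or overlapped, and in CPM of the library total each of them overlapped. MiR-301a-5p was at 35.02 and 40.7 normalized CPM in 2D and at 18.3 and 23.1 in MCS (log2 fold change -0.87, SE 0.43, unadjusted p = 0.102 and adjusted p = 0.977 by edgeR with Benjamini-Hochberg adjustment). Without replicate 1 of 2D it was -0.98. The value of -0.87 equals that in DLD1 to 2 decimals under this scaling alone. With TMM scaling miR-301a-5p changed by -0.96 in HT29 and -1.07 in DLD1, and with library totals by -0.80 and -1.25. MiR-130b-5p was at 29.6 and 28.5 in 2D and at 16.4 and 25.6 in MCS (log2 fold change -0.46, SE 0.46). MiR-454-5p was at 8.03 and 12.5 in 2D and at 8.03 and 8.27 in MCS, and its groups overlapped.

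A term for line by culture, fitted to the 8 libraries together, tested whether a member responded differently in the lines. Of 250 miRNAs tested in both lines, 0 (0%) passed an adjusted p of 0.05 by the edgeR quasi-likelihood test, Benjamini-Hochberg adjusted, and 0 of the 7 members did so by edgeR or by DESeq2, which passed 8.4% of all miRNAs. At an unadjusted p under 0.05 the count was 0 of 7 members and the share 9.2% of all miRNAs. The difference, HT29 minus DLD1, was 1.97 for miR-301a-3p (SE 1.14, adjusted p = 0.675, edgeR), -0.71 for miR-130b-5p (SE 0.50) and -0.03 for miR-301a-5p (SE 0.41, adjusted p = 0.988, edgeR). With an SE of 1.14 for miR-301a-3p and 1.15 for miR-301b-3p, a difference as large as 1.97 did not pass the test. The joint fit gave each miRNA 1 fitted spread for both lines, though fitted alone they differed, 0.193 in DLD1 and 0.521 in HT29. Without replicate 1 of HT29 2D, an alternative added after the data were seen, the difference was 1.24 for miR-301a-3p (SE 0.75) and -0.80 for miR-301b-3p (SE 0.88), and 0 members passed by edgeR. The lines share no library, and the kits differ with them.

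Ratios of 2 members in the same library do not depend on how libraries are scaled, and they were used to compare the loci and the arms. A total of 7 ratios were tested by a 2-sided exact permutation test of the log2 ratio, with culture labels exchanged within each line. Within 1 line the smallest possible p is 0.3333, and over both lines it is 0.0556, so no ratio could pass 0.05.

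The 4 counted 3p arms carry the same seed, and their shares of the summed 3p counts describe the make-up of that seed group. In DLD1 2D, miR-454-3p gave 59.2% and 63.9%, miR-130b-3p 34.2% and 32.3%, miR-301a-3p 5.73% and 3.32%, and miR-301b-3p 0.935% and 0.433%. In DLD1 MCS, miR-454-3p gave 47.6% and 55.9%, miR-130b-3p 45.9% and 39.0%, miR-301a-3p 3.79% and 3.37%, and miR-301b-3p 2.75% and 1.76%. Both MCS libraries had a smaller share of miR-454-3p and larger shares of miR-130b-3p and miR-301b-3p than both 2D libraries. In HT29 2D, miR-454-3p gave 63.9% and 41.6% and miR-301a-3p 8.29% and 32.8%, and in MCS they gave 28.5% and 43.6% and 46.8% and 31.8%. The HT29 cultures overlapped in these shares, and miR-301a-3p held the largest share in replicate 1 of MCS.

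**Figure D3:**
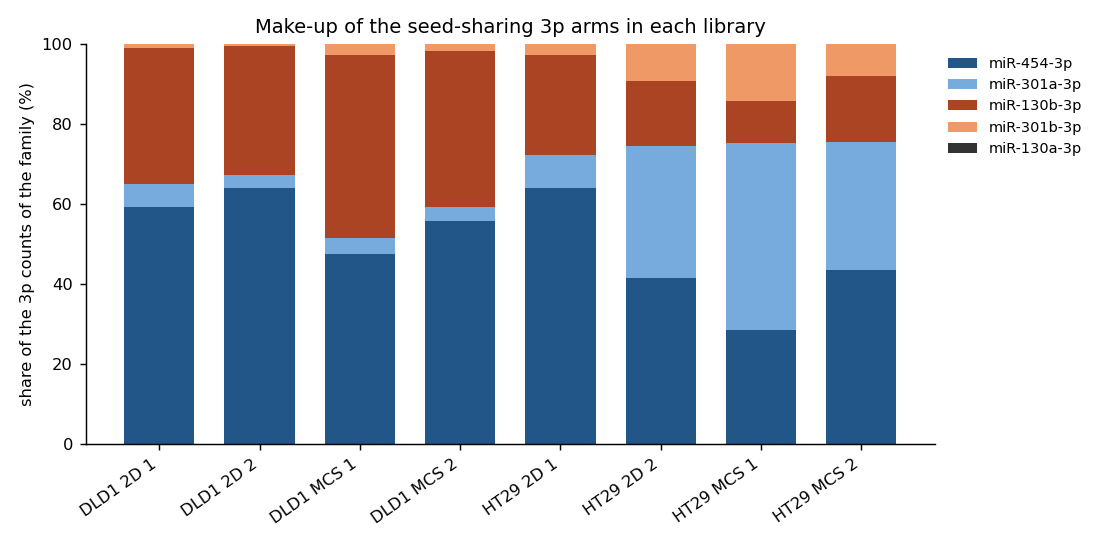
Share of the summed 3p counts of the family, in percent, taken by each 3p arm in each of the 8 libraries, as stacked bars. MiR-454-3p and miR-130b-3p fill most of every DLD1 bar, and miR-301a-3p reaches 46.8% in replicate 1 of HT29 MCS against 8.29% in replicate 1 of HT29 2D.

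The ratio between the SKA2 locus and the MIR301B and MIR130B locus was lower in MCS in DLD1. The summed 3p counts of the SKA2 locus (miR-301a-3p and miR-454-3p) over those of the MIR301B and MIR130B locus were 1.85 and 2.05 in 2D and 1.06 and 1.45 in MCS, a log2 ratio of 0.96 ± 0.11 against 0.31 ± 0.32 (SD, n = 2). In HT29 they were 2.60 and 2.91 in 2D and 3.04 and 3.06 in MCS, a log2 ratio of 1.46 ± 0.12 against 1.61 ± 0.01. Both MCS libraries lay below both 2D libraries in DLD1 and above them in HT29, a log2 change of -0.65 and of 0.15 (0.07 without replicate 1 of HT29 2D). With the mean of the members' log2 levels in place of their sums, which gives the scarce miR-301b-3p more weight, the DLD1 change was -1.34. It was -0.42 without replicate 1 of DLD1 MCS and -0.88 without replicate 2. The change over both lines was -0.25 (exact permutation p = 0.3333, adjusted over the 7 ratios 0.389), and the difference between the lines was not tested.

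Members of the same locus did not keep a fixed ratio. In DLD1, miR-301b-3p over miR-130b-3p was 0.0274 and 0.0134 in 2D and 0.0600 and 0.0452 in MCS, and in HT29 it was 0.107 and 0.570 in 2D and 1.33 and 0.487 in MCS. It was higher in both DLD1 MCS libraries and overlapped in HT29 (change over both lines 1.57, exact permutation p = 0.1111, adjusted 0.194). The HT29 change was 1.71, or 0.50 without replicate 1 of 2D. MiR-301a-3p over miR-454-3p overlapped in both lines, at 0.0519 to 0.0968 in DLD1 and 0.130 to 1.64 in HT29 (change 0.87, exact permutation p = 0.4444, adjusted 0.444), and the HT29 change of 1.77 became 0.47 without replicate 1 of 2D.

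The close relatives miR-301a-3p and miR-301b-3p came from different chromosomes, and their ratio was steadier in HT29 than in DLD1. It was 3.10 and 3.54 in HT29 2D and 3.31 and 3.94 in MCS, while miR-301a-3p itself ranged from 17.5 to 278 normalized CPM. In DLD1 it was 6.13 and 7.67 in 2D and 1.38 and 1.91 in MCS, lower in both MCS libraries, a log2 change of -2.08 against 0.13 in HT29 (0.03 without replicate 1 of 2D). Over both lines the change was -0.98 (exact permutation p = 0.2778, adjusted 0.389). Whether reads of either miRNA were counted on the other was not tested.

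**Figure D4:**
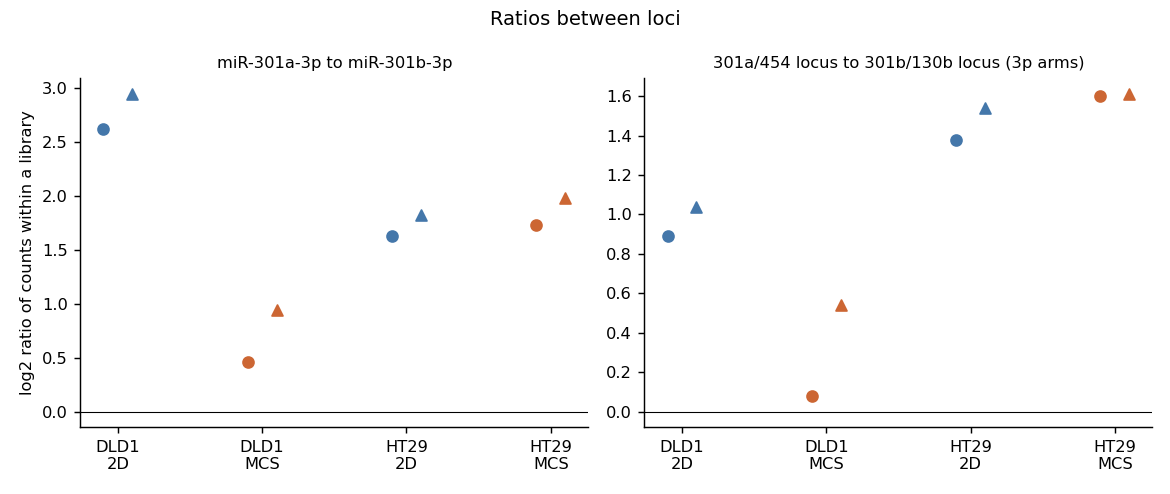
Log2 ratio of counts within each library for miR-301a-3p to miR-301b-3p (left) and for the summed 3p arms of the SKA2 locus to those of the MIR301B and MIR130B locus (right), with 2D in blue, MCS in orange, replicate 1 as circles and replicate 2 as triangles. Both DLD1 MCS points lie below the DLD1 2D points in each panel, by means of -2.08 and -0.65, while the HT29 points lie within a narrow band.

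For 2 of the 3 hairpins with both arms among the members, MIR301A and MIR454, the arm ratio gave the lowest p that the design allows. For MIR301A, the 5p to 3p ratio was 1.43 and 2.04 in DLD1 2D and 1.02 and 1.21 in MCS. In HT29 it was 2.00 and 0.383 in 2D and 0.0659 and 0.184 in MCS. Both MCS libraries lay below both 2D libraries in each line, where 31% of the 84 hairpins with both arms measured did so in DLD1 and 9.33% of 75 in HT29. The change over both lines was -1.80 (exact permutation p = 0.0556, the smallest possible, adjusted over the 7 ratios 0.194), and the HT29 change of -2.99 was -1.80 without replicate 1 of 2D. As a share of both arms, the 5p arm took 58.8% and 67.1% in DLD1 2D and 50.5% and 54.8% in MCS. In HT29 replicate 1 of 2D it took 66.7% (95% Wilson interval 61.0% to 71.9%), in replicate 2 27.7% (26.6% to 28.8%), and in MCS 6.19% (5.28% to 7.23%) and 15.5% (14.4% to 16.7%). Intervals cover counting error only, and the HT29 replicates differed by far more than them.

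Counts of MIR454 came mostly from its 3p arm, and its 5p arm took a small share in each library. The 5p to 3p ratio was 0.0321 and 0.0378 in DLD1 2D and 0.0309 and 0.0284 in MCS, and 0.0595 and 0.0925 in HT29 2D and 0.0474 and 0.0480 in MCS. In each line the MCS libraries both lay below the 2D libraries (change over both lines -0.44, exact permutation p = 0.0556, adjusted 0.194), and the HT29 change was -0.64, or -0.96 without replicate 1 of 2D and -0.32 without replicate 2. A lower minor arm was common among hairpins. The minor to major arm ratio was lower in both MCS libraries for 42.9% of the 84 hairpins in DLD1 and 13.3% of the 75 in HT29, and its median change was -0.24 in DLD1, beside -0.23 for MIR454, and -0.09 in HT29. In DLD1 the gap between the nearest libraries was small, 3.11% against 3.00% as the 5p share, with 95% Wilson intervals of 2.75% to 3.53% and 2.61% to 3.46%.

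MIR130B gave counts from both arms in DLD1, with a 5p to 3p ratio of 1.30 and 1.86 in 2D and 1.24 and 1.61 in MCS, which overlapped. In HT29 the 3p arm led, with a ratio of 0.557 and 0.541 in 2D and 0.260 and 0.392 in MCS, lower in both MCS libraries (change over both lines -0.46, exact permutation p = 0.1111, adjusted 0.194). Of the 75 hairpins with both arms measured in HT29, 9.33% were lower in this way. For MIR301B the 5p arm is not a family member, and its ratio stood outside the 7 that were adjusted together. Its raw counts were 129 and 293 in DLD1 2D and 62 and 72 in MCS, while those of miR-301b-3p rose as given above, so the 5p to 3p ratio went from 1.09 and 3.08 to 0.178 and 0.329. In HT29 the 5p arm had 2 and 111 counts in 2D and 3 and 44 in MCS. The MCS ratios lay below the 2D ratios in both lines (change -2.93 in DLD1, -2.28 in HT29 and -2.60 over both, exact permutation p = 0.0556, the smallest possible and not adjusted), and in HT29 they rest on these low counts. Among hairpins with both arms at a mean of 10 CPM or more, 31% lay below in DLD1 and 9.33% in HT29. MiR-301b-5p averaged 6.65 CPM in DLD1 and 1.82 in HT29, under that level.

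**Figure D5:**
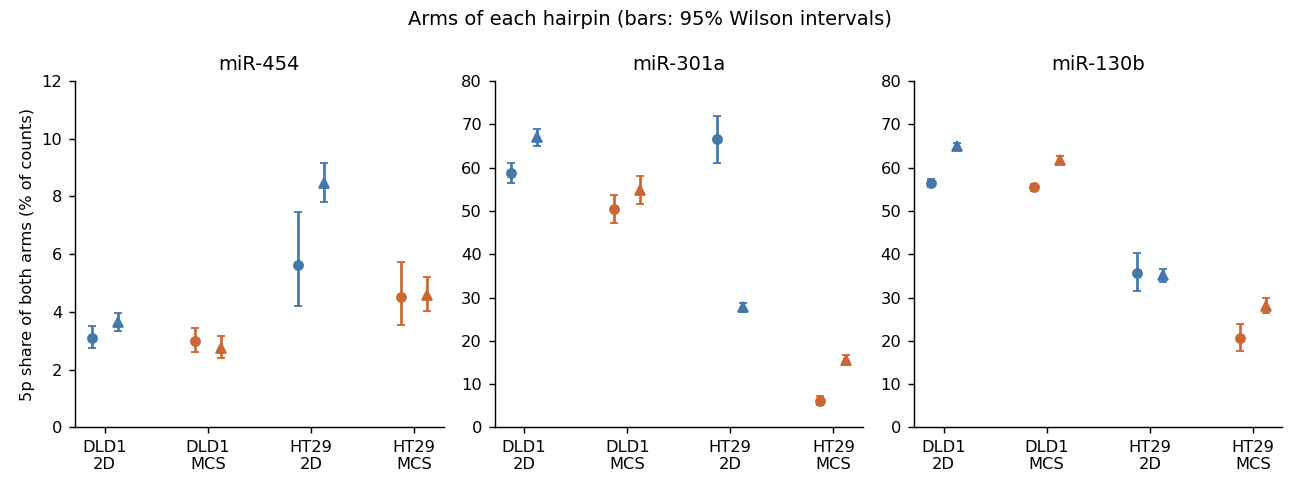
Share of the 5p arm in the counts of both arms, in percent, for miR-454, miR-301a and miR-130b in each library, with 2D in blue, MCS in orange, replicate 1 as circles, replicate 2 as triangles and bars for 95% Wilson intervals; the miR-454 axis has its own range. The MCS points of miR-301a lie below the 2D points in both lines, at 6.19% and 15.5% in HT29 MCS, and those of miR-130b overlap in DLD1.

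MiRNAs whose seed overlaps the family seed at an offset of 1 base were looked at as a list of 5. MiR-19a-3p and miR-19b-3p, of the miR-17/92 cluster and its relatives, have the seed GUGCAAA, and miR-148a-3p, miR-148b-3p and miR-152-3p have the seed CAGUGCA. In DLD1, 3 of the 5 were called higher in MCS and 0 lower by edgeR with Benjamini-Hochberg adjustment, beside 29.8% of all tested miRNAs. They were miR-148a-3p (log2 fold change 1.09), miR-152-3p (0.94) and miR-19b-3p (0.61), while miR-19a-3p (0.06) and miR-148b-3p (0.27) were not called. The call of miR-19b-3p was lost with TMM factors (0.44), and miR-19a-3p changed sign there (-0.11). With library totals alone only miR-148a-3p of the list stayed called (0.70), and miR-148b-3p changed sign (-0.14). In HT29, 0 of the 5 were called by edgeR's quasi-likelihood test, its exact test or DESeq2, and 0 had an unadjusted p under 0.05, with log2 fold changes from -0.23 (miR-152-3p) to 1.34 (miR-148a-3p).

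The miRNAs most like miR-301a-3p over the 8 libraries, in log2 normalized CPM taken as deviation from the mean of the line, were miR-98-3p (r = 0.88), miR-181d-5p (0.81) and miR-301b-3p (0.80), of 249 compared. Without replicate 1 of HT29 2D these values were 0.70, 0.53 and 0.44. Its own locus partner miR-454-3p had r = 0.45 and rank 30, and its other arm miR-301a-5p had r = -0.37. Those most like miR-130b-3p were miR-27a-3p (0.98), miR-142-5p (0.98) and miR-200a-3p (0.97), and miR-301a-5p was at -0.91. Its locus partner miR-301b-3p had r = 0.74 and rank 46, and its other arm miR-130b-5p had r = -0.08. Without replicate 1 of HT29 2D, miR-27a-3p, miR-142-5p and miR-200a-3p were each at 0.99. MiR-301b-3p was then at 0.79, miR-130b-5p at 0.04 and miR-301a-5p at -0.90. These are descriptions over 8 libraries that share lines, cultures and depth.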

How the data were processed

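Small RNA was sequenced from DLD1 and HT29 cells in 2D or as MCS, 2 replicates per group, assigned from the labels. The authors deposited raw counts per mature miRNA, without normalization or pooling, after adapter trimming and alignment with Bowtie2 to GRCh37 (hg19) and to miRBase. The submitters' processing notes name CASAVA 1.8.3, cutadapt 1.11, Bowtie2 2.1.0 and edgeR 3.4.2. Handling of multi-mapping reads and of strand is not given in the sources used here. Counts in the single-library tables and the joint table were compared over 12572 values, of which 0 differed. In the HT29 tables, 15 entries naming no miRNA held 2590 counts (0.00988%) in replicate 2 of 2D and 0 elsewhere, and were left out.

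Counts were analysed in R 4.3.3 with edgeR 4.0.16 and limma 3.58.1. Upper quartile factors were computed over miRNAs with at least 1 count in the line, and miRNAs whose mean level reached 10 CPM were fitted per line by the quasi-likelihood test without a replicate term. MiRNAs were called at a fold change of 1.5 or more with a p-value, adjusted by the Benjamini-Hochberg method, under 0.05. The interaction was fitted over all 8 libraries. Library totals were 10495634 to 26211524, and precision is set mainly by the spread between 2 replicates. Ratios within a library were tested by exact permutation (scipy 1.17.1), and shares carry 95% Wilson intervals. DESeq2 1.42.0, edgeR's exact test, other scalings and filters, a replicate block and leaving out each library were alternatives. Fits were tested on simulated data.

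All 8 members are named. The lists were the other arms, same-seed miRNAs, offset-seed miRNAs and cell type markers, with the 3 miRNAs most like miR-301a-3p and miR-130b-3p by Pearson's r. MiR-130a-5p and the same-seed miR-3666 and miR-4295 were not in the count table. Members and lists were chosen with earlier results of these data known. Loci were placed on GRCh37 by sequence match and GENCODE annotation.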

Additional observations from a re-analysis of the deposited data

Results flagged for a closer look

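The 3p counts of the SKA2 locus over those of the MIR301B and MIR130B locus were lower in MCS in DLD1. In HT29 the change was small and of the opposite sign. The log2 change from 2D to MCS was 0.15 in HT29, with both MCS libraries above both 2D libraries, and -0.65 in DLD1, with both MCS libraries below. Each line alone gave an exact permutation p of 0.3333, the smallest possible there, and how often other miRNA pairs separate in this way was not computed. The HT29 change was 0.07 without replicate 1 of 2D. The SKA2 locus took 74.45% of these counts in replicate 2 of HT29 2D (Wilson interval 73.72% to 75.16%). In replicate 1 of HT29 MCS it took 75.23% (73.98% to 76.44%). These intervals overlap, so a rise in HT29 cannot be told apart from counting error between these nearest libraries. The difference between the lines was not tested, and the line cannot be told apart from the kit version. Groups of 2 are too small for a test of outlying samples.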

How the results depend on the processing

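The number of members called in DLD1, 2, became 1 when 10 CPM were required in every library, since miR-301b-3p was then filtered out, and 0 with all libraries in 1 fit. It ranged from 0 to 2 when each library was left out in turn. Leaving out replicate 1 of MCS gave 0, and leaving out replicate 2 of 2D gave 1. With library totals alone or upper quartiles over the tested miRNAs it was 3. Over all miRNAs, the calls in DLD1 went from 143 to 30 with all libraries in 1 fit, which shares the fitted spread of each miRNA between the lines. Leaving out a library gave 92 to 124 DLD1 calls. In HT29, calls over all miRNAs went from 0 to 5 with the exact test, 12 with DESeq2 and 15 with no filter.

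The direction of miR-130b-5p in DLD1 was not settled. Its log2 fold change, 0.24, became -0.16 with library totals alone, -0.22 with upper quartiles over the tested miRNAs and -0.02 with DESeq2, and ranged from -0.12 to 0.37 when libraries were left out. MiR-130b-3p in DLD1 became -0.07 with upper quartiles over the tested miRNAs. The log2 change of the locus ratio in DLD1, -0.65, became -1.34 as a mean of log2 levels and ranged from -0.88 to -0.42 when libraries were left out. The causes were not tested.

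The replicate numbers pair no samples by the labels, and deviations of same-numbered libraries correlated at 0.32 in DLD1 and 0.79 in HT29. With the replicate block, 3 HT29 members were called, miR-301a-3p (2.06, adjusted p = 2.96e-06, edgeR), miR-301b-3p (1.83, 3.45e-05) and miR-301a-5p (-0.88, 0.0451), and 47 miRNAs in all (15.6% of those tested), against 0 without it. The MCS to 2D ratios of same-numbered HT29 libraries were 15.9 and 1.18 for miR-301a-3p and 14.9 and 1.06 for miR-301b-3p. The pairs thus disagreed widely for miR-301a-3p and miR-301b-3p, and their small p-values are not evidence of a like rise in each pair. For miR-301a-5p the ratios were 0.523 and 0.566, lower in MCS in both pairs. In DLD1 the block gave 2 members. In the interaction it gave 0 members and 16% of all miRNAs.

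The planned ratios with miR-130a-3p were not run, since it had 0 or 1 counts in each library. With 2 replicates per group, precision rests on the spread between libraries more than on depth.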
